A study of Mus musculus with 9 samples.

Results

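The histone genes of the replication clusters were taken as the genes whose mouse symbols start with Hist1h, Hist2h, Hist3h or Hist4h. This symbol rule also takes in testis forms, pseudogenes and Hist1h2al, which lies apart from the other Hist1 genes. The gene annotation used in the study (GENCODE M1) held 70 genes under this rule, 67 protein-coding and 3 pseudogenes. Of the 70, 61 were listed in at least 1 of the 2 deposited result tables. In all, 13643 genes were listed. RNA-seq was done on AML12 cells, a mouse hepatocyte line, 5 days after lentiviral delivery of a control hairpin (n = 3 libraries) or of either of 2 hairpins against Srrm2, named shRNA 1 (n = 3) and shRNA 2 (n = 3). Srrm2 is a large scaffold protein of nuclear speckles, the nuclear bodies that store splicing factors, and the study asked what follows when these bodies are disrupted. All 3 groups shared the same line, medium and dexamethasone, and each knockdown group carried a single hairpin sequence. Each table gave for each gene a single mean normalized count, taken by the authors over the control libraries and the libraries of 1 hairpin together. Every level below is such an authors' mean, so it has no SD and no n, no test between control and knockdown was made, and the depth of the libraries is unknown. The tables were normalized separately, so a difference between them is given only as a ratio centred on all genes. A mean of both tables is the plain average of the 2 levels of a gene, or its single level where 1 table lists it.

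These genes encode the H2A, H2B, H3 and H4 proteins of the nucleosome core and the linker histone H1, which are needed in bulk while DNA is copied. Most of their RNAs are made in S phase and, in their main form, are neither spliced nor polyadenylated. The RNA ends just after a short stem-loop, which the stem-loop binding protein (Slbp) holds while the U7 snRNP directs the cut. Some of the genes can also be read into longer, polyadenylated RNAs, as in cells that leave the cycle. The study's methods describe libraries enriched for polyA RNA but made with a kit named for total RNA, and the tables used here do not settle how far RNAs without a tail were captured.

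The stem-loop was searched in the 300 genomic bases after the stop codon of each gene, taken from its longest transcript with an annotated stop. The search was for a stem of 6 base pairs that starts with GG and ends with CC around a loop of 4 bases. At most 1 pair could be neither Watson-Crick nor G-T. The element was found after 55 of the 61 listed histone genes, against 3498 of 21862 other coding genes. With all 6 pairs Watson-Crick it was found after 54 of 61, against 0.709% of the other coding genes. It started between 16 and 58 bases after the stop codon, with a median of 30 bases. The sites below are shown because they cover the main forms of the element. Each is given on the strand of its gene, 5′ to 3′, from the NCBIM37 (mm9) genome, with the 16-base element in capitals between flanks of 5 bases.
Hist2h2aa2, chr3:96043702-96043727, minus strand: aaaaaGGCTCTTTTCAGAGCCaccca
Hist1h3h, chr13:21809959-21809984, plus strand: tcaaaGGCTCTTTTCAGAGCCaccca
Hist1h1c, chr13:23831376-23831401, plus strand: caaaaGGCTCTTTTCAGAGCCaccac
Hist4h4, chr6:136752514-136752539, minus strand: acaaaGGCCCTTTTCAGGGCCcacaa
Hist1h4d, chr13:23673814-23673839, plus strand: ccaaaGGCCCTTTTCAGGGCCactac
Hist1h2bl, chr13:21807582-21807607, minus strand: tcaaaGGCTCTTTTAAGAGCCaccca
Hist2h2ac, chr3:96024336-96024361, minus strand: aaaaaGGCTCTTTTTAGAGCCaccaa
Hist1h3g, chr13:23627753-23627778, plus strand: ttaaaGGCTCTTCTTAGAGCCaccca

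The 55 elements had 9 different sequences. The form seen after Hist2h2aa2, Hist1h3h and Hist1h1c was the commonest, with 31 genes of the H1, H2A, H2B and H3 classes. The form with the GGCCC stem seen after Hist4h4 and Hist1h4d followed 8 genes, all of the H4 class. The form with an A in the last loop position, seen after Hist1h2bl, followed another 8 genes. The match after Hist2h2be had an unpaired position in its stem and the loop CGCT. No match was found in this window after Hist1h2an, Hist1h2bp, Hist1h2bq, Hist1h2br, Hist1h2al and Hist2h2bb, which says only that the letters searched for were not there. Within 600 bases Hist1h2bp and Hist2h2bb had a match. The stop codons of shorter transcripts were not searched.

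The annotated 3′ ends differed among the genes. The annotation ended before the end of the element for 12 genes, and 10 of these models, those of Hist4h4 and Hist1h2bl among them, leave out the whole stem-loop. The models of Hist1h2ak and Hist2h3b leave out part of it. Along the genome the annotation ran more than 200 bases past the element for 11 genes, among them Hist1h1c, Hist1h1d, Hist1h2bc and Hist2h4. For Hist1h2bc, which is annotated as spliced, this distance includes the intron. A polyA signal (AATAAA or ATTAAA in the last 50 annotated bases, on the strand of the gene) was present in 17 of 61 histone genes against 68.2% of 21861 other coding genes. In the shRNA 1 table the median level was 44.1 mean normalized counts per kb of exon for the histone genes with the signal and 81.3 for those without it. In the shRNA 2 table the corresponding medians were 46.4 and 85.3. Both sets ranged widely and overlapped in level. These levels are divided by annotated exon length, so they do not show whether the counts themselves differed between the sets. The part of length in this difference was not tested.

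The histone genes were a small part of the measured RNA. They held 0.0783% of the summed mean normalized counts of the shRNA 1 table and 0.0770% of the shRNA 2 table, while being 0.440% and 0.453% of the genes listed. Their mean normalized counts were low for many members: 16 were under 10, 27 lay from 10 to 100 and 18 were at 100 or more. Per kb of annotated exon, their median was 81.3 in the shRNA 1 table and 77.7 in the shRNA 2 table. The medians of all listed protein-coding genes were 47.6 and 49.5. Above those medians lay 36 of 59 histone genes in the shRNA 1 table and 35 of 61 in the shRNA 2 table. The levels of the histone genes spread from 3.26 to 708 per kb in the shRNA 1 table. They depend on the annotated length, which ran from 312 bases, as for Hist4h4, to 3821 bases for Hist1h1d. Hist1h1d had 311 mean normalized counts in the shRNA 1 table but 81.3 per kb. How far reads cover each model is unknown, so ranks per kb are uncertain.

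**Figure D1:**
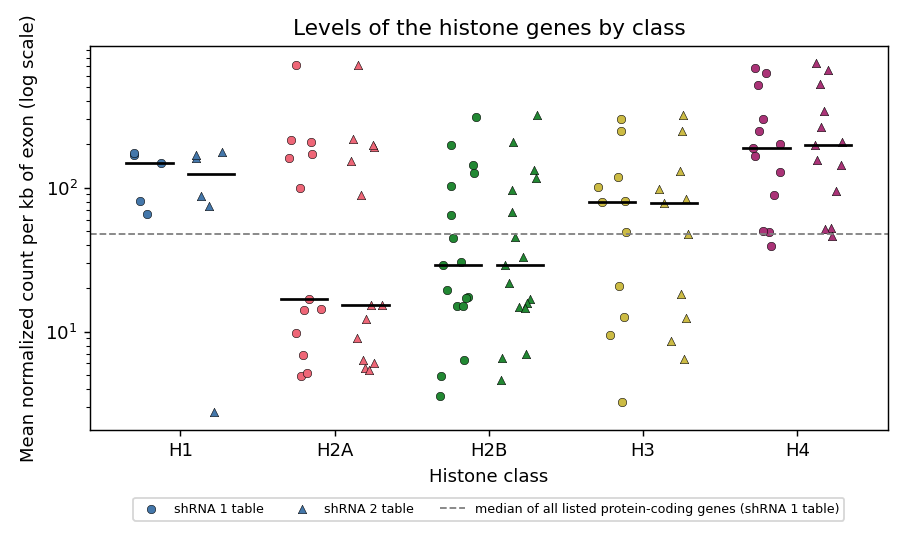
Mean normalized count per kb of exon (log scale) of each listed histone gene by class, with circles for the shRNA 1 table, triangles for the shRNA 2 table, bars for class medians and a dashed line for the median of all listed protein-coding genes in the shRNA 1 table. The H4 genes sit highest, with medians of 187 and 197, and the H2A genes split into a high and a low set.

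The H4 class, the core histone that pairs with H3, was the highest per kb. All 13 annotated H4 genes were listed, with a median of 187 per kb in the shRNA 1 table and 197 in the shRNA 2 table. They held 42.5% of the summed per-kb level of the histone genes in the shRNA 1 table and 43.4% in the shRNA 2 table. Of the summed mean normalized counts of the histone genes, not divided by length, they held 30.5% and 30.9%. Hist4h4, the single gene of the Hist4 cluster (chromosome 6, 136752589 to 136752900), had 676 per kb in the shRNA 1 table and 730 in the shRNA 2 table. Hist1h4m had 630 and 656 per kb, Hist1h4d had 519 and 523, Hist1h4k had 298 and 338, and Hist1h4h had 247 and 263. The lowest H4 gene, Hist1h4a, still had 39.2 and 46.4 per kb, so the class spanned 17.3-fold in the shRNA 1 table.

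The H2A class, which forms the dimer with H2B at the face of the nucleosome, had the widest range. Of 20 annotated H2A genes 14 were listed, with a median of 16.7 per kb in the shRNA 1 table and 15.3 in the shRNA 2 table. Hist2h2aa2, at 708 per kb in the shRNA 1 table and 706 in the shRNA 2 table, or 409 and 408 mean normalized counts, was the highest histone gene in the shRNA 1 table and on the mean of both, while Hist4h4 was above it in the shRNA 2 table. All of its exon sequence has a copy elsewhere in the genome, so its level and rank are uncertain. Hist1h2ai followed with 213 and 219 per kb and Hist2h2ac with 207 and 199. The others went down to 4.90 for Hist1h2ah in the shRNA 1 table, a 144-fold span. The class was also the one with the most genes left unlisted: Hist1h2aa, Hist1h2ac, Hist1h2af, Hist1h2ag and Hist2h2aa1 were protein-coding and listed in neither table, as was the pseudogene Hist1h2aj. The filter behind the listing is not given, so this does not show that they were not expressed.

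The H2B class had 17 of 19 annotated genes listed, with a median of 28.9 per kb in the shRNA 1 table and 28.8 in the shRNA 2 table. Hist1h2bl was its highest gene, at 309 and 319 per kb, followed by Hist1h2bn at 197 and 207. Hist3h2ba was the second lowest of all the histone genes on the mean of both tables, at 3.58 and 4.58 per kb. Hist1h2ba, which encodes the testis form of H2B and is the neighbour of the testis H2A gene Hist1h2aa, was not listed, and neither was the pseudogene Hist3h2bb-ps.

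The H3 class, whose tail carries many of the regulatory histone marks, had 11 of 12 annotated genes listed, all but the pseudogene Hist2h3c2, and medians of 79.8 and 77.7 per kb. Hist1h3h had 302 per kb in the shRNA 1 table and 317 in the shRNA 2 table, and Hist1h3i had 246 and 249. Hist1h3a was the lowest, at 3.26 and 6.47 per kb, which rests on 1.74 and 3.46 mean normalized counts. The linker histone class H1, which binds the DNA between nucleosomes, had all 6 genes listed. Its 5 genes other than the testis form Hist1h1t lay between 65.4 and 174 per kb in the shRNA 1 table, a 2.66-fold span and the narrowest of the 5 classes in that table. Hist1h1t was listed only in the shRNA 2 table, at 2.75 per kb and 2.50 mean normalized counts, the lowest level of any listed histone gene. The only other gene listed in a single table was Hist1h2ad, at 3.46 mean normalized counts in the shRNA 2 table.

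Many of these genes are near copies of each other, and the authors kept uniquely mapped reads. For each gene the windows of 100 bases within its exons that had another exact match in the genome were counted. The median over the 61 listed genes was 36.2% of windows, with 9 genes at 0 and 19 at 50% or more. Over the 9 annotated genes listed in neither table the median was 62.2%, with 5 of them at 50% or more. Among these unlisted genes Hist2h2aa1 was at 100% and Hist1h2aa at 0. Whether repeated sequence bears on the listing was not tested. In 5 listed genes every window had a second match: Hist2h2aa2, Hist1h2ao, Hist1h2ap, Hist1h2bq and Hist1h2br. Reads that match both copies equally are not uniquely mapped, so they may be missing from the levels of these genes. How many were lost was not measured, and the levels are uncertain.

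The pairs of copies did not have equal values. Hist1h2ao had 51.3 mean normalized counts in the shRNA 1 table and 46.3 in the shRNA 2 table, while its copy Hist1h2ap had 7.31 and 6.37. Hist1h2bq had 67.3 and 73.6, and its copy Hist1h2br had 33.5 and 32.8. Hist1h4m, of whose windows 88.1% matched elsewhere, had 253 and 264, and Hist1h4n, at 89.1%, had 80.6 and 84.7. Hist2h2aa2 had 409 and 408, whereas its copy Hist2h2aa1, whose exons overlap those of Hist2h3c1 on the same strand, was not listed. In each pair the same copy was the higher in both tables. The tables may hold the same control libraries and rest on the same mapping, so they are not independent here. How read pairs that match both copies were assigned was not tested.

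**Figure D2:**
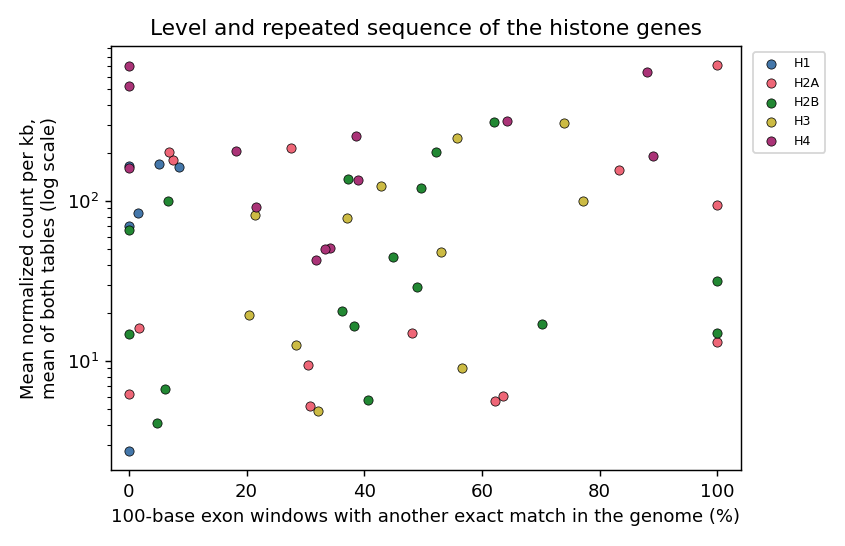
Mean normalized count per kb (mean of both tables, log scale) of each listed histone gene against the percent of its 100-base exon windows with another exact match in the genome, coloured by class. High and low genes occur across the axis, and the 5 genes at 100% reach from Hist1h2ap near the low end to Hist2h2aa2 at the top.

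Repeated sequence and level showed no single order. In the shRNA 1 table the median per kb was 131 for genes with 50% or more of their windows matched elsewhere, 49.6 for genes with fewer, and 115 for genes with none. In the shRNA 2 table, where Hist1h1t and Hist1h2ad also entered, the corresponding medians were 98.1, 52.1 and 74.6. The genes with no second match included Hist4h4 and Hist1h4d, both among the 4 highest per kb, and Hist1h1t, the lowest. Exons on the same strand overlapped those of another gene for 3 listed members: Hist3h2a with Trim17, Hist1h2be with Gm11398 and Hist2h3c1 with Hist2h2aa1. Exons on the other strand overlapped for Hist1h2bm, Hist1h4b and Hist2h2ab. The methods describe strand-specific libraries but the strand setting of the counting is not given in the sources used here, so these values are uncertain.

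The Hist1 genes of chromosome 13 lie in 2 main stretches. The first, chr13:21807632-22135545, held 24 annotated genes, of which 22 were listed, with median levels of 151 per kb in the shRNA 1 table and 148 in the shRNA 2 table. The second, chr13:23622919-24026720, held 31 genes, of which 27 were listed, with medians of 49.3 and 46.4. By the mean over the tables, levels were at 100 per kb or more for 13 genes of the first stretch and 7 of the second. Hist1h2al stood alone at chr13:51298057-51298434, at 9.80 and 9.04 per kb. The classes are mixed along both stretches, and the share of repeated windows also differed, with a median of 62.2% in the first and 32.2% in the second over the listed genes.

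**Figure D3:**
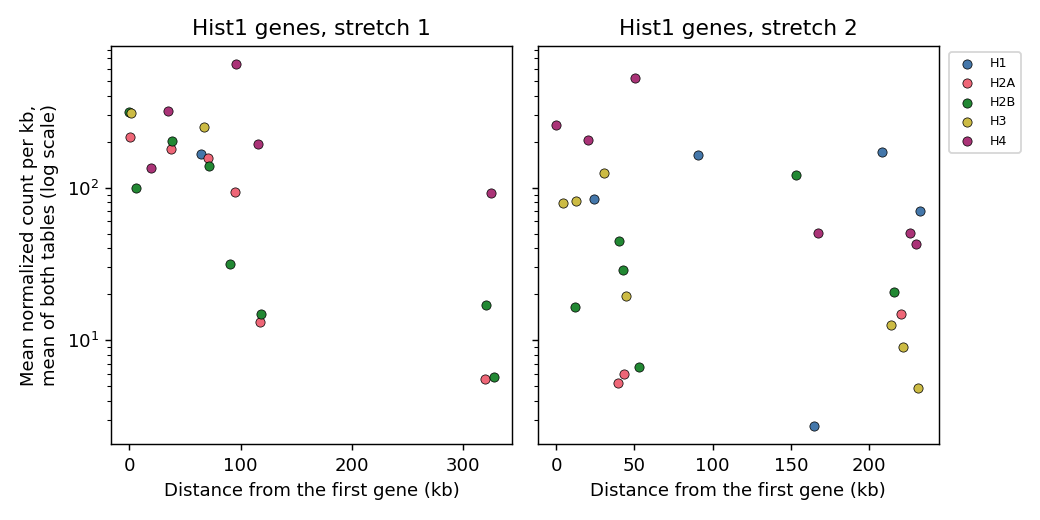
Mean normalized count per kb (mean of both tables, log scale) of each listed Hist1 gene against its distance in kb from the first annotated gene of its stretch on chromosome 13, coloured by class. Neighbouring genes often differ by a large factor, and 13 genes of stretch 1 against 7 of stretch 2 lie at 100 or more.

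H2A and H2B genes often stand back to back and share the DNA between their starts. Among the annotated histone genes there were 13 such divergent pairs with starts at most 500 bases apart, every pair was an H2A gene with an H2B gene, and between 167 and 305 bases lay between the partners. Both partners were listed in 9 pairs. On the mean of both tables the partners differed per kb by 1.12-fold to 13.7-fold, with a median of 2.96-fold. They differed by more than 2-fold in 5 of the 9 pairs. One of these, Hist1h2bf with Hist1h2ad at 4.77-fold, rests for Hist1h2ad on the shRNA 2 table alone. The folds depend on annotated length, and counts order some pairs the other way and others the same way. Hist1h2bq with Hist1h2ao, 2.96-fold higher per kb for Hist1h2ao, had 67.3 and 51.3 mean normalized counts in the shRNA 1 table. Hist1h2ap with Hist1h2br, at 1.13-fold per kb, had 7.31 and 33.5. Every 100-base window of these genes also had a second match, so their levels are uncertain. In 3 pairs both partners were at 100 per kb or more: Hist1h2bl with Hist1h2ai, Hist1h2ak with Hist1h2bn, and Hist1h2an with Hist1h2bp. The most even pair was Hist1h2ak with Hist1h2bn, at 180 and 202 per kb. The most uneven was Hist2h2ac with Hist2h2be, at 203 and 14.9 per kb, where the annotated exon of Hist2h2be runs 2160 bases past its matched element and the per-kb level is divided by that length.

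The DNA between the starts is shown for these 2 pairs, the most even and the most uneven, on the plus strand of the NCBIM37 (mm9) genome. Capitals mark the CCAAT box, the TATAAA box and the octamer ATTTGCAT, a known element of H2B promoters, on either strand.
Hist1h2ak and Hist1h2bn, chr13:21845777-21845991: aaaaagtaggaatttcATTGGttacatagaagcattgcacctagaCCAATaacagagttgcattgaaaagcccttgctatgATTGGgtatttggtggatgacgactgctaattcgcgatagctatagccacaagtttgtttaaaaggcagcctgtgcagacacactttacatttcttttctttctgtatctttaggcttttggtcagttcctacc
Hist2h2ac and Hist2h2be, chr3:96024804-96025043: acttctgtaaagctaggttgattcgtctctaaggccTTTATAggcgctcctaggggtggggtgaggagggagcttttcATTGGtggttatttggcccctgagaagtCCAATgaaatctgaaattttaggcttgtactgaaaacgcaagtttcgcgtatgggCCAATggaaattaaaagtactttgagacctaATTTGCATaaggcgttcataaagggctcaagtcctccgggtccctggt

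Each of these stretches held 3 CCAAT boxes, and the second also held 1 TATAAA box and 1 octamer. In the 200 bases before the annotated start of each listed histone gene, which for some of these short models is the start codon, CCAAT or its reverse complement ATTGG was present for 51 of 61 genes against 30.5% of 22313 other coding genes. It was present for every listed H1, H2A and H2B gene, for 10 of 11 H3 genes, and for 4 of 13 H4 genes. TATAAA or TTTATA was present for 25 of 61 genes against 9.95% of the others. The octamer ATTTGCAT or ATGCAAAT was present for 12 of 61 genes against 1.29% of the others, in 7 of 17 H2B and 5 of 14 H2A genes and in no H1, H3 or H4 gene. In the shRNA 1 table the median level was 18.4 per kb for the genes with the octamer and 98.9 for those without it, but the octamer occurred only in the H2A and H2B classes, whose medians are the lowest. Within H2B the medians were 44.4 with it and 23.0 without it, and within H2A 6.82 and 129, so the classes went in opposite directions. For CCAAT the medians over all classes were 49.3 with it and 194 without it, where 9 of the 10 genes without it were H4 genes, and for TATAAA they were 88.6 and 72.1. Divergent partners can count the same match, so the genes are not independent of each other here.

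Because each mean was taken over control and hairpin libraries together, the tables could be compared only through their ratio. For genes whose mean reached 10 or more in each table, the log2 of the mean in the shRNA 2 table over the mean in the shRNA 1 table was taken and centred on the median of all 11451 such genes, which was 0.07. With the same control values in both tables, the fold between the hairpins would be at least as far from 1 as the uncentred ratio. After centring and separate normalization this need not hold for the ratios given here. The labels of the control libraries do not settle whether both tables hold the same ones. With no values per library the ratio has no error and was not tested.

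The ratio of the histone genes lay close to that of all genes. Over the 45 histone genes with a ratio the median was -0.04 on the log2 scale and the range was -0.35 to 0.17, with 29 genes below 0 and 16 above it. Over all 11451 genes the range was -2.03 to 2.65, and the quartiles were -0.10 and 0.10. The quartiles of the 45 histone genes were -0.12 and 0.02. A range grows with the number of genes, so the ranges of sets this unlike in size are not comparable. By class the median log2 ratio was 0.03 for 5 H1 genes, -0.14 for 7 H2A genes, -0.06 for 12 H2B genes, -0.08 for 8 H3 genes and 0.01 for 13 H4 genes. Mean normalized counts were also summed by class over all 59 histone genes listed in both tables, those under the minimum included. These sums gave log2 ratios of -0.01 for H1, -0.07 for H2A, -0.07 for H2B, -0.05 for H3 and -0.02 for H4.

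Past 1.2-fold, no histone gene of 45 was higher in the shRNA 2 table, against 6.18% of all genes, and 1 of 45 was lower, against 6.82% of all genes. That gene was Hist3h2a, an H2A gene of the Hist3 cluster on chromosome 11, with 13.6 mean normalized counts in the shRNA 1 table and 11.2 in the shRNA 2 table and a centred log2 ratio of -0.35. Its exons overlap those of Trim17 on the same strand, so its reads and those of Trim17 cannot be told apart in the overlap. The next lowest, Hist1h3d, had 25.9 and 22.7 and a log2 ratio of -0.26, just inside the limit. Among 14 further genes listed in both tables but under the minimum in at least 1, the log2 ratio ran from -0.27 to 0.92, the upper end being Hist1h3a. These counts depend on the minimum: with none, and the centre taken over all 13259 genes listed in both tables, 4 of 59 histone genes were past 1.2-fold higher, against 9.10% of all genes, and 3 of 59 lower, against 9.43%. The 4 were Hist1h2ah, Hist1h2bj, Hist1h3a and Hist3h2ba, with mean normalized counts from 1.74 to 3.46. At 1.1-fold with the minimum kept, 2 of 45 were higher, against 17.8% of all genes, and 8 of 45 lower, against 18.2%.

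**Figure D4:**
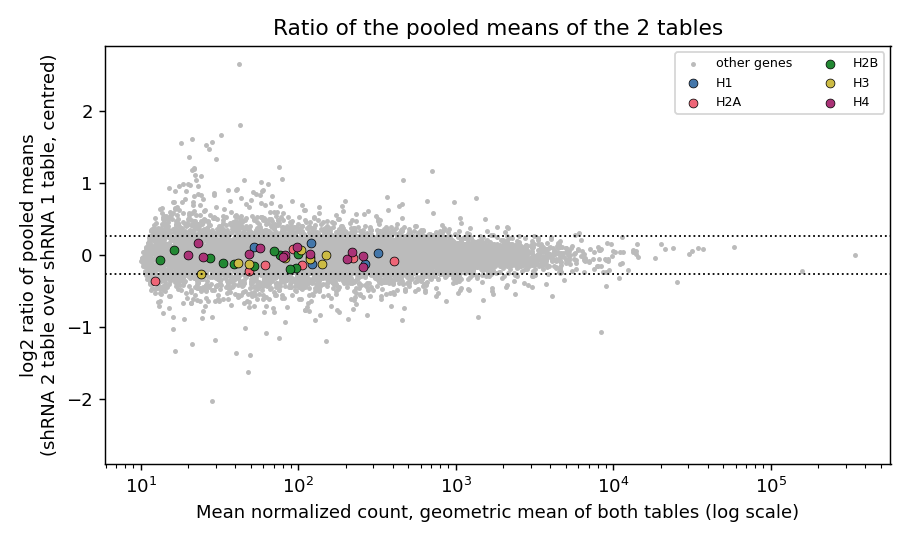
Centred log2 ratio of the pooled means, shRNA 2 table over shRNA 1 table, against the mean normalized count (geometric mean of both tables, log scale) for all genes whose mean reached 10 or more in each table, with histone genes coloured by class and dotted lines at 1.2-fold. The histone genes lie between -0.35 and 0.17, and 1 lies outside the lines.

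The histone variants that lie outside the replication clusters, most of which can be made without DNA replication, had 8 of 11 genes listed. Their median was 102 per kb in the shRNA 1 table and 110 in the shRNA 2 table. H3f3b and H3f3a, which both encode H3.3, had 733 and 344 per kb in the shRNA 1 table and 785 and 383 in the shRNA 2 table. H2afz, which encodes H2A.Z, had 248 and 223 per kb. H3f3b was thus in the same range per kb as Hist2h2aa2 and Hist4h4. Past 1.2-fold in the ratio was 1 of the 8, Cenpa, the H3 variant of centromeres, lower in the shRNA 2 table with a log2 ratio of -0.45. Over all genes 6.82% were lower and 6.18% higher past this limit, so the count is near the background.

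The genes that make and process histone RNA were all listed, 11 of 11, with medians of 40.6 and 37.8 per kb. Sympk and Cpsf3, a scaffold and the endonuclease of the cleavage complex, had 150 and 106 per kb in the shRNA 1 table, and Npat, the transcriptional activator of histone genes, had 72.8. Slbp itself had 33.3 per kb in the shRNA 1 table and 28.1 in the shRNA 2 table, with a log2 ratio of -0.32, the only gene of the 11 past 1.2-fold, against 6.82% of all genes lower and 6.18% higher. Of 8 histone chaperones, which carry new histones to DNA, all were listed, with Cabin1, Hira and Ubn1 the highest at 116, 90.7 and 76.2 per kb in the shRNA 1 table. Asf1b, with a log2 ratio of -0.34, was the only chaperone of the 8 past 1.2-fold, again near the share of all genes (6.82% lower, 6.18% higher).

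Of 14 genes of S phase all were listed, with medians of 101 and 105 per kb. Pcna, the sliding clamp of DNA polymerase, had 245 per kb in the shRNA 1 table and 227 in the shRNA 2 table, and the helicase subunits Mcm2 and Mcm7 had 214 and 181 in the shRNA 1 table. Their median log2 ratio was -0.08, and 3 of 14 were past 1.2-fold, all lower in the shRNA 2 table: Rrm2 of ribonucleotide reductase at -0.34, and the cyclins Ccne1 and Ccne2 at -0.47 and -0.37. These shares stand beside the background of 6.82% of all genes, and no test was made. Changes in the share of cells in S phase and changes in RNA per cell cannot be told apart in bulk libraries.

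All 8 hepatocyte markers were listed, Alb at 1053 and 888 per kb and Krt18 at 7034 and 6395, with Apoa1 low at 31.9 and 31.5. Of the 8, only Alb was past 1.2-fold in the ratio, with a log2 ratio of -0.32, against 6.82% of all genes lower and 6.18% higher. The endothelial markers Pecam1 and Cdh5 were in neither table, and Ptprc, Col1a1 and Des were at 0.911, 0.587 and 2.14 per kb in the shRNA 1 table. The cholangiocyte keratins Krt19 and Krt7 were at 1537 and 192 per kb in that table. Srrm2 had 387 and 424 per kb, but these means include the control libraries and so do not check the knockdown.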

How the data were processed

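RNA-seq libraries of AML12 cells (n = 3 for each of 3 groups) were mapped by the authors to mm9 with TopHat2, uniquely mapped reads were kept, genes were counted with HTSeq, and DESeq2 (version 1.8.2) was run for each hairpin against control, per the submitters' notes and the study's methods. The deposited signal used here is the authors' mean normalized count of each gene, pooled over control and 1 hairpin. The other 5 columns of each table hold the authors' own fold changes, their errors, test statistics and p-values, and were not used. The filter that decided which genes are listed is not given in the sources used here. There were 0 further sample columns.

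Gene identifiers were matched to GENCODE M1 on NCBIM37 (mm9). Levels were divided by union exon length. Ratios used genes whose mean reached 10 or more in each table. Named genes were the 10 highest and 3 lowest members per kb, members past 1.2-fold, and the 3 highest of each list; other genes, promoter motifs and divergent pairs were chosen after values were seen. A list of other RNAs without a polyA tail gave no values, its symbols being absent from this annotation. Members and lists were chosen with earlier results of these data known. Scripts (Python 3.11.15, pandas 2.3.3, numpy 2.4.6) were tested on simulated data.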

Additional observations from a re-analysis of the deposited data

How the results depend on the processing

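No paired analysis was possible because the tables hold no values per library, and for the same reason no replicate could be left out. The histone share of the summed counts moved from 0.0783% to 0.0838% over protein-coding genes only and to 0.0716% without the highest gene in the shRNA 1 table, and from 0.0770% to 0.0824% and 0.0706% in the shRNA 2 table. The number of histone genes past 1.2-fold, 1 at first, was 10 at 1.1-fold, 0 at 1.5-fold, 0 with a minimum mean of 50 and 7 with no minimum. The median share of windows with a second match was 47.7% for windows of 50 bases against 36.2% for 100. The other 13 values under an alternative stayed within the interval around the first value or, where it had none, moved by less than 1.5 times. For a median this is a 95% interval over genes, so it measures no spread between libraries. For the median level it was wide, from 39.2 to 127 per kb in the shRNA 1 table and from 33.2 to 130 in the shRNA 2 table. The median log2 ratio stayed between -0.04 and -0.02, the stem-loop count was 54 to 57, and the median level rose to 127 and 123 per kb when genes under a mean of 10 were left out. Means pooled over groups, unknown depth and reads shared between copies limit every value.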
